A study of Oreochromis niloticus with 12 samples.

Results

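Fast muscle of domesticated Nile tilapia (Oreochromis niloticus) was described from 6 RNA-seq libraries, named D53, D63, D66, D68, D70 and D72, out of the 12 libraries of the study. The libraries were taken by their treatment label, Domestication, and the question was what this muscle transcribes most and which of its genes differ from fish to fish. All came from females of 5 months of age that belonged to the first generation kept under domestication, and each fish has a wild progenitor that was not analysed here. No other treatment or allele is named in the labels, and neither labels nor methods state how the 6 fish are related to each other. As there is 1 group and no contrast, values are given as levels and as spread between fish, without tests between groups. Nothing in the labels names further samples of these fish, so that the spread between fish includes the spread of extraction and library preparation, which cannot be told apart from it.

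Fast muscle makes up most of the trunk of a fish and drives short bursts of swimming. Its fibres are filled with sarcomeres, in which thick filaments of myosin pull on thin filaments of actin, with titin as a molecular spring, and contraction is fuelled by creatine phosphate and by glycolysis. When food is short or stress hormones are high, fibres are known to degrade protein through the ubiquitin-proteasome pathway and through autophagy, and FoxO transcription factors switch on many genes of both routes. Slow fibres, which lie in a thin layer beside the fast muscle, use fatty acids and oxygen and carry their own myosins and troponins.

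The gene counts per library ranged from 4312367 (D68) to 8478988 (D66), with a median of 7005192.5. Reads with more than 1 alignment made up 44.7% (D53) to 60.2% (D68) of the aligned reads, and these, like the 9.23% to 16.2% that were ambiguous between annotated transcripts, are not part of the gene counts. Of 42609 annotated genes 27163 had at least 1 count. A filter of 10 counts in at least 3 libraries and a mean of 1 CPM was passed by 8049. CPM are the counts of a gene per 1000000 of a library size that is scaled between fish, as described below. A gene with several annotated transcripts loses reads shared by them, and 7227 of the 8049 genes that passed have 1 transcript, so a low CPM does not show that a gene is little transcribed, and CPM does not rank genes by transcript number. No pair of libraries looked like a duplicate, since at most 2.67% of the genes had equal counts in both. Library D53 stood apart from the others, with a mean correlation of log2 CPM of 0.833 to the other 5 fish against 0.888 to 0.919 for D63, D66, D68, D70 and D72, and results that rest on it are given with and without it.

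The tissue label was checked against marker genes. Of 5 fast muscle markers with a matching symbol, mylpfa (fast myosin light chain) stood at 41051 ± 9375 CPM (SD, n = 6), ckma (muscle creatine kinase) at 44721 ± 9009 and actn3b (alpha-actinin of fast fibres) at 6277 ± 2077. The other markers were low, with the second light chain mylpfb at 110 ± 116 CPM and the calcium pump atp2a1, which has 2 annotated transcripts, at 44 counts in the 6 fish. Of the slow fibre markers, myoglobin (mb) was at 143 ± 106 CPM, and tnni1b had 3 counts in all 6 fish together. Markers of other cells differed in level within a cell type. Of endothelium, cdh5 was at 43.9 ± 13.7 CPM and kdrl at 10.8 ± 4.46. Of leukocytes, coro1a was at 6.58 ± 2.2 CPM, cd74a at 216 ± 38.6 and lcp1 at 2074 ± 960. Of fibroblasts, col1a2 reached 11275 ± 5535 CPM, with dcn at 249 ± 100 and pdgfra at 77.1 ± 5.76. The fat cell marker cidec, with 2 annotated transcripts, had 1 count in the 6 fish together, and the epithelial marker epcam, with 4, had 9 counts. Also with several annotated transcripts, slc4a1a of erythrocytes and col1a1a had no count. Such genes lose shared reads, so these counts do not show that the cells were absent. In a library 3 counts would correspond to 0.304 to 0.550 CPM.

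Values in CPM are scaled by median-of-ratios size factors, so that the typical gene is level between fish and a change is read relative to it. Scaling by total gene counts would move all genes of a fish by 0.50 (D53), -0.44 (D63), -0.42 (D66), 0.34 (D68), 0.09 (D70) and -0.07 (D72) on the log2 scale. Counts of list members under both scalings are therefore printed together where they differ much. Of the genes picked by the naming rules given under the processing, 157 varied between fish. In each of these the fish that was farthest from the others lay on the same side under both scalings. Many were picked for a wide spread, and the shifts are small beside it, so this was largely set by the choice. Some of the less variable picks changed side, such as btg1 in D68 (-0.56 with size factors and 0.13 with totals, log2 over the median of the others).

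Protein-coding genes held 95.1 ± 2.82% of the gene counts (SD, n = 6). Among the rest, genes for ribosomal RNA held 2.91 ± 2.55%, small nucleolar RNAs (snoRNAs, which guide the chemical modification of ribosomal RNA) 1.01 ± 0.938%, long non-coding RNAs 0.512 ± 0.140%, pseudogenes 0.242 ± 0.137% and spliceosomal small nuclear RNAs (snRNAs) 0.128 ± 0.156%. The classes did not vary alike. Ribosomal RNA genes took 7.77% of the counts in D63 and 3.73% in D68, against 1.35% to 1.85% in the other 4 fish. The libraries had been depleted of ribosomal RNA before sequencing and reads with several alignments were not counted, so this is what was left of that RNA at annotated loci.

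The snoRNA share ran from 0.226% in D63 to 2.82% in D68, a 12.5-fold range, with a value between 0.439% and 1.09% in the other 4 fish. The snRNA share ran over a 42.4-fold range, again from D63 (0.0103%) to D68 (0.437%). D63 was thus the highest fish for ribosomal RNA and the lowest for both small RNA classes, and D68 was the highest for both small classes. D68 also had the fewest gene counts, the largest share of reads with several alignments (60.2%) and the largest share outside annotated features (13.7%), and the part of these in its small RNA values was not tested. Long non-coding RNAs varied least among these classes, over a 2.07-fold range.

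**Figure D1:**
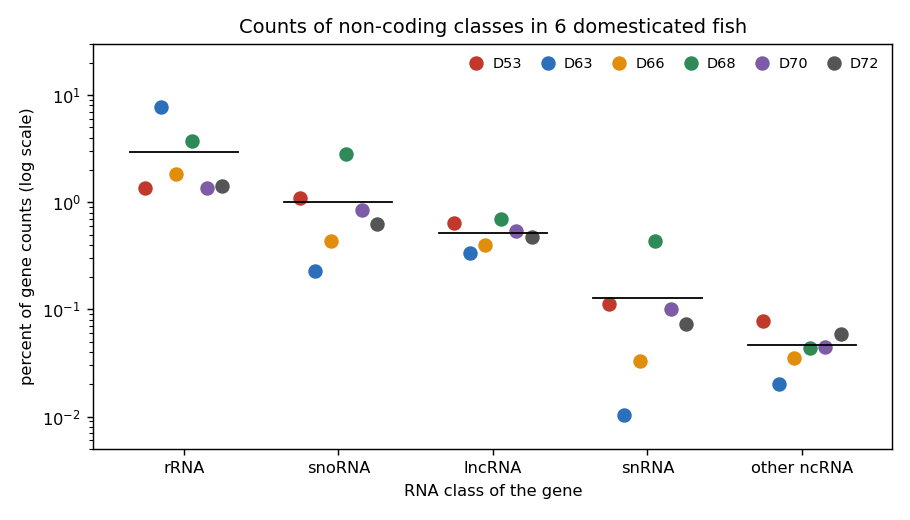
Percent of gene counts (y axis, log scale) in genes of 5 non-coding RNA classes (x axis) in the 6 domesticated fish, 1 point per fish and class, with a black line at the mean of 6 fish. D63 is highest for rRNA (7.77%) and lowest for snoRNA (0.226%) and snRNA (0.0103%), and D68 is highest for snoRNA (2.82%) and snRNA (0.437%).

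Few genes dominated each class. LOC112843668, an rRNA gene on linkage group 22, held 68.5% of the mean rRNA share and 5.16% of all gene counts in D63, against 1.01% to 2.35% in the other fish. The snoRNA gene LOC112847244 on linkage group 6 held 62.1% of the mean snoRNA share and ran from 0.147% of gene counts in D63 to 1.91% in D68. The snRNA gene LOC112842301 on linkage group 14 held 62.7% of the mean snRNA share, with 0.286% in D68 and 0.00667% in D63. Copies of rRNA, snRNA and snoRNA genes can be nearly identical, so the split of reads between copies is uncertain.

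The 10 most abundant genes together held 45.9 ± 4.37% of the gene counts (SD, n = 6), the 50 most abundant 70.7 ± 8.33% and the 100 most abundant 76.1 ± 7.48%. D53 had the flattest profile, with 40.3% in the 10 leading genes and 56.1% in the 50 leading genes, whereas D63 had 50.8% and 79.5%. There were 7 genes among the 10 most abundant in all fish, and 15 genes reached that rank in at least 1 fish. These shares are of counts and are not corrected for gene length, so they favour long transcripts such as that of titin.

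The leading gene was LOC100712344, a fast skeletal myosin heavy chain, the motor of the thick filament. It held 9.97 ± 1.80% of the gene counts, from 7.49% in D66 to 11.7% in D53 and D70. Titin (ttn.1), which spans each sarcomere from Z-disc to M-band, followed with 3.69% in D53, 5.79% in D68, 6.27% in D63, 6.72% in D70, 6.89% in D72 and 11.6% in D66. Skeletal actin (acta1b) held 3.51% in D53 and 7.62% in D63, the lowest and the highest fish. D53 was the lowest fish for both titin and actin, and not for the leading myosin.

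The muscle creatine kinases ckma and ckmb, which regenerate ATP from creatine phosphate, together held 8.38 ± 1.89% of the gene counts. Relative to the typical gene they varied little, with an excess CV of 0.201 and 0.238, as did mylpfa (0.228). The excess CV used here is the coefficient of variation of CPM between fish after the Poisson variance of counting is taken out. Glyceraldehyde-3-phosphate dehydrogenase (gapdh), a glycolytic enzyme, ranged from 2.21% of gene counts in D53 to 6.22% in D66. The light chains mylpfa and mylz3 ranged from 3.39% to 4.70% and from 1.46% to 3.24%. The ninth gene, LOC109201788, held 1.34% to 3.14% and is listed without a product name. Behind these, parvalbumin beta (LOC100707505), which binds calcium and speeds the relaxation of fast fibres, ranged from 0.170% in D53 to 2.86% in D63, and calsequestrin (casq1a), the calcium store of the sarcoplasmic reticulum, from 0.539% in D53 to 1.05% in D66.

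In the supplementary tables of the study 7 genes, all on linkage group 4, are named as fast skeletal myosin heavy chains, and together they held 12.8 ± 1.37% of the gene counts (SD, n = 6), between 11% in D66 and 15.2% in D70. The sum was steadier between fish than the members behind the leading one. LOC100707599 held 2.36% in D68 and 0.121% in D53, with 0.213% to 0.656% in the other 4 fish. LOC100698204 stood at 3382 CPM in D72, 1151 in D66 and 181 to 317 in D53, D63, D68 and D70, with an excess CV of 1.35. LOC100706261 was at 55.2 CPM in D53 and 133 in D63 against 864 to 2978 in the other 4 fish. LOC100702068 went the other way in D63, where it was highest (2.31%). Myosin genes of this kind are close copies, and reads that align to more than 1 of them were not counted. Each gene and their sum may thus be under-counted. Most of the sum was the leading gene LOC100712344, with 9.97% of the gene counts.

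Of the 8049 genes that passed the filter, 1648 varied between the 6 fish with an excess CV of at least 0.5, which is 20.5% of those tested. The median excess CV was 0.309, with quartiles at 0.195 and 0.461, and 213 genes reached 1 or more. Without D53, 992 of 7651 genes were variable, or 13%, and the median was 0.252. D53 was the fish farthest from the others in 657 of the 1648 variable genes (39.9%), and in 28.6% of all genes tested. A set of 432 variable genes (26.2%) passed the threshold whichever fish was left out. Variation was more frequent in non-coding RNA classes than among protein-coding genes, of which 1475 of 7640 (19.3%) were variable. The variable ones were 10 of 10 snRNA genes, 48 of 64 snoRNA genes, 9 of 10 rRNA genes and 98 of 295 long non-coding genes. In the small classes much of this was shared by 1 fish. All 10 snRNA genes and 45 of the 64 snoRNA genes were highest in D68, and 8 of the 10 rRNA genes in D63. Genes of a class are thus not independent of each other.

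Each fish was also set against the median of the other 5. D53 had 898 genes at least 2-fold high (11.2% of those tested) and 666 at least 2-fold low (8.27%). D63 had 493 high (6.12%) and 698 low (8.67%). D66 had 454 high (5.64%) and 455 low (5.65%), and D68 had 468 high (5.81%) and 362 low (4.50%). D70 had 282 high (3.50%) and 291 low (3.62%), and D72, the fish nearest to the others, 182 high (2.26%) and 265 low (3.29%). With counts scaled by totals the balance moved, to 2308 high and 271 low of the same 8049 genes in D53 and to 185 high and 1870 low in D63.

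The first principal component of log2(CPM + 0.5) over genes of at least 10 CPM held 42.9% of the variance and separated D53, at a score of 47.2, from the other 5 fish, at -20.7 to -1.1. The second component (24.1%) ran from D63 (-23.1) over D66 (-12.7) to D70 (17.9) and D68 (23.6), and the third (17%) set D66 (28.1) against D63 (-17.3). Among named genes, fbxo32, comtb, rnf181 and ghrb had the largest positive loadings on the first component, after si:zfos-911d5.4, and dgat2, acta1a, gatm, znf648 and actc1b the largest negative ones. The second component was led by hspd1, mrpl20, tnni4b.2, ppa1b and coa3a on the side of D68 and D70.

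**Figure D2:**
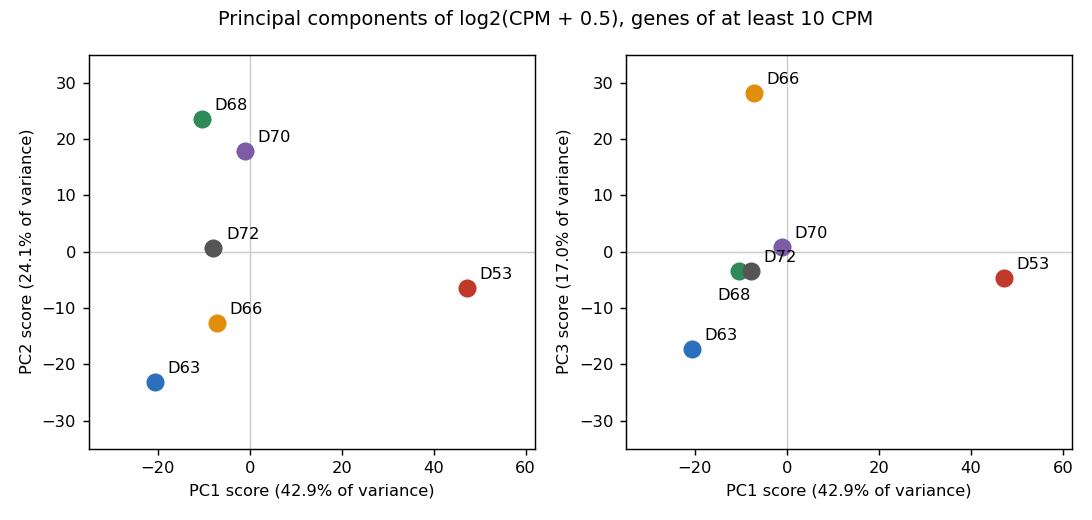
Scores of the 6 domesticated fish on the first principal component (x axis of both panels) and on the second (left panel) or the third (right panel) component of log2(CPM + 0.5), 1 point per fish, with the percent of variance on each axis. D53 lies at 47.2 on the first component and the other fish between -20.7 and -1.1, and D66 lies at 28.1 on the third.

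The relation of these patterns to technical measures was examined with 4 correlations over the 6 fish, each with a two-sided exact permutation test. The share of reads with several alignments had Pearson's r = -0.718 with the first component (exact permutation p = 0.0778, adjusted p = 0.311 by Benjamini-Hochberg) and Spearman's rho = -0.771 (exact permutation p = 0.103, adjusted p = 0.206). Without D53 and D68, which were farthest from the median of that share, r was -0.611. Gene counts and the share in the 10 leading genes had r = 0.621 (exact permutation p = 0.178, adjusted p = 0.356), with rho = 0.771 (exact permutation p = 0.103, adjusted p = 0.206) and r = 0.207 without D66 and D68. Gene counts against the first component gave r = 0.027 and against the non-coding share r = -0.340, with adjusted exact permutation p-values of 0.94 and 0.659. Without D66 and D68, r was -0.124 with the first component and positive with the non-coding share, and leaving out 1 fish at a time the latter ran from -0.785 without D63 to 0.208 without D68. With D53 left out and the first component computed anew, gene counts had r = -0.852 with it. The share of reads with several alignments had r = 0.227 with that component, and the sign of a component is arbitrary. None of the 4 relations over the 6 fish passed the correction. The labels put all libraries in 1 sequencing lane and give no batch.

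The share of variable genes was compared over 32 lists of genes by function or cell type. It was highest among proteasome subunits, where 26 of 35 measured genes were variable (74.3%, against 20.5% of all genes), slow fibre and heart type contractile genes (4 of 6), muscle breakdown genes (13 of 22) and thin filament genes (6 of 11). The insulin, IGF and growth hormone list had 10 of 19, the glucocorticoid and integrated stress response list 12 of 26, glycolysis and glycogen 12 of 27, lipid storage 5 of 11, cell cycle 5 of 11, fatty acid oxidation 7 of 18, thick filament 5 of 15 and endothelium 5 of 16. At the other end, 0 of 68 cytosolic ribosomal protein genes and 2 of 69 genes of oxidative phosphorylation were variable with these size factors. With scaling by totals 10.3% and 27.5% were, against 34.9% of all genes. Under that scaling the lists of glycolysis and glycogen, thick filament and endothelium fell below the share of all genes. The thin filament list was only slightly above that share, and the other lists given as high stayed above it. For glycolytic, contractile filament and endothelial genes the higher share thus rests on the size factors. Members of a list are genes of the same 6 fish and not independent of each other, and the lists are described by counts only.

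**Figure D3:**
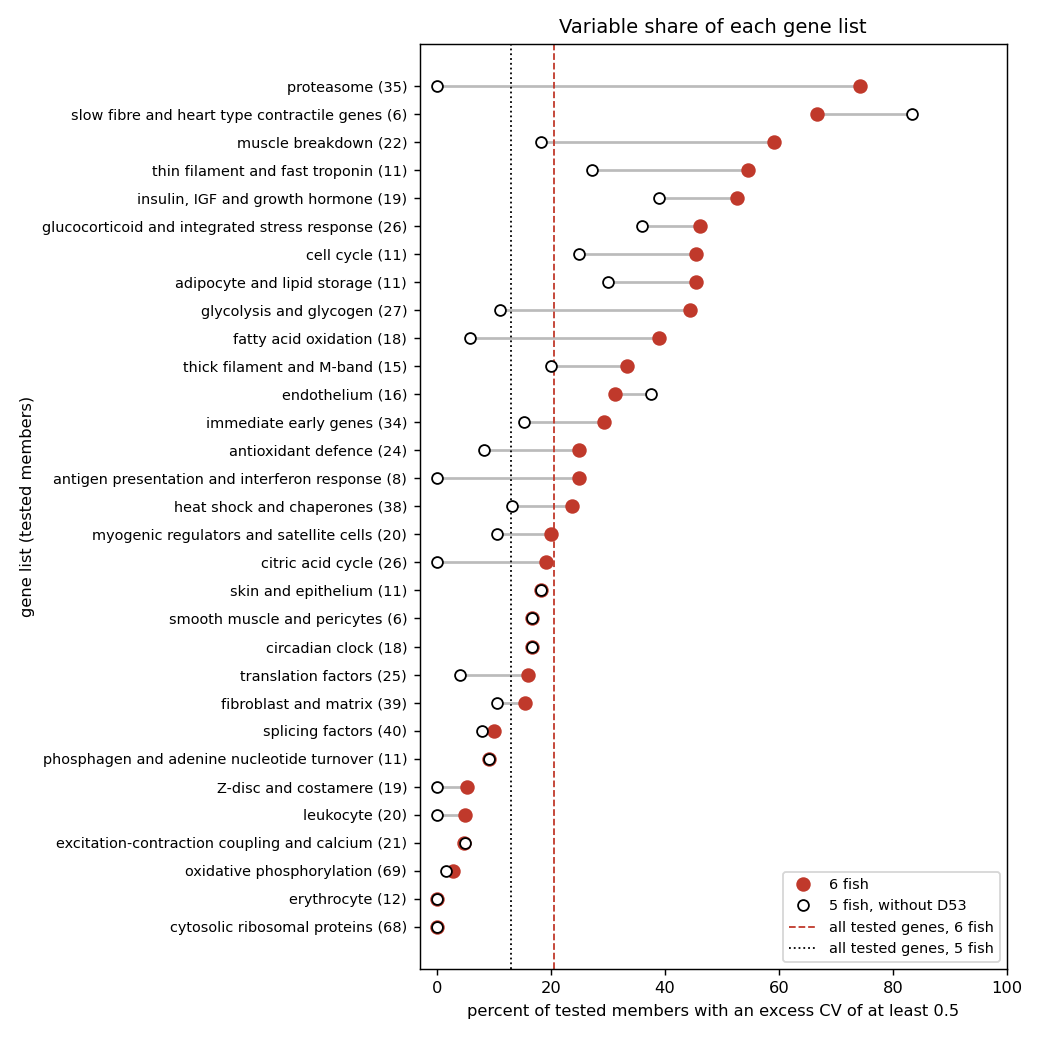
Percent of the tested members of each gene list with at least 5 of them (y axis, number of tested members in brackets) with an excess CV of at least 0.5 (x axis), in 6 fish (filled) and without D53 (open), with vertical lines for all tested genes (20.5% and 13%). The proteasome moves from 74.3% to 0 when D53 is left out, and slow fibre and heart type genes from 66.7% to 83.3%.

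Proteasome subunits were high together in D53. The 26S proteasome degrades proteins tagged with ubiquitin. In D53, 29 of its 35 measured genes were at least 2-fold above the other fish, against the 11.2% of all genes given above. With scaling by totals 34 of 35 were, against 2308 of all 8049 genes. Their summed level was 4479 CPM in D53 and 1083 (D63), 1303 (D66), 1326 (D72), 1491 (D68) and 2112 CPM (D70) in the others. The core subunit psma1 stood at 252 CPM in D53 and at 30.7 to 49.7 in the other 5 fish. The core subunits psma4 (174 against 17.8 to 55.0 CPM) and psmb1 (184 against 26.0 to 65.5 CPM) had the same order, with D70 in second place. The median member lay 1.59 log2 units above the other fish in D53 and 0.66 above them in D70. Without D53, 0 of the 35 genes were variable, against 13% of all genes. D53 also had the smallest share of reads with several alignments (44.7%) and the largest share of ambiguous reads (16.2%). Its summed leukocyte and erythrocyte lists were the lowest, and these sums were mostly lcp1 and tmod4. Of the defining markers, lcp1 was lowest in D53, whereas coro1a, cd74a, alas2 and rhag were not. The part of these measures in the proteasome values was not tested. In D63 the median proteasome member was -0.42 log2 units from the other fish. There 2 of 35 genes were at least 2-fold low, against 8.67% of all genes. With scaling by totals 22 were, against 1870 of all 8049 genes. The interferon-inducible activator subunits psme1 and psme2, picked after their values were seen, had an excess CV of 0.192 and 0.233 and did not follow this pattern.

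The ubiquitin ligase fbxo32 (atrogin-1), which is known in mammals as a marker of muscle wasting, varied more than any subunit. It stood at 2197 CPM in D53, 315 in D66, 131 in D68, 108 in D70, 59.0 in D63 and 50.2 in D72. D53 was 20.4-fold above the median of the others, and D66 was the next highest fish. Its excess CV was 1.78, and 0.806 without D53. The ligase gene fbxo30a was at 213 CPM in D53 and 11.7 to 33.1 CPM elsewhere, and the lysosomal protease gene ctsd at 456 CPM and 48.4 to 92.6 CPM. Of the 22 muscle breakdown genes, 12 were at least 2-fold high in D53 and 0 low, against 11.2% and 8.27% of all genes. With scaling by totals 16 were high and 0 low, against 2308 and 271 of all 8049 genes. Autophagy genes were among them, such as map1lc3b at 88.8 CPM in D53 against 14.5 to 28.8 elsewhere and becn1 at 122 against 20.0 to 39.5, both picked after their values were seen. Without D53, 4 of the 22 genes were variable (18.2%, against 13% of all genes).

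Other genes high in D53 without a place in these lists were led by si:zfos-911d5.4 at 276 CPM against 5.20 to 12.7 in the other 5 fish. The catechol O-methyltransferase gene comtb was at 97.0 CPM against 4.13 to 6.77, and the ubiquitin ligase gene rnf181 at 72.2 CPM against 2.51 to 8.5. LOC100708241, named in the same supplementary tables as calcium-binding and coiled-coil domain-containing protein 1, reached 2375 CPM in D53 and 20.0 to 85.0 CPM elsewhere. In each of these genes D53 stood alone, and the excess CV of comtb went from 1.84 to 0.0883 without it. The growth hormone receptor gene ghrb was at 166 CPM in D53 and 6.82 to 24.7 in the others, and the glucose transporter gene slc2a12 at 78.0 CPM against 5.07 to 17.5. The selenium transport protein gene selenop had 5059 CPM in D53 and 498 to 1202 CPM in the others.

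Genes of fatty acid oxidation in mitochondria were also high in D53. Of 18 genes 8 were at least 2-fold high and 1 low, against 11.2% and 8.27% of all genes. With scaling by totals 10 were high and 0 low, against 2308 and 271 of all 8049 genes. Very long chain acyl-CoA dehydrogenase (acadvl), which starts the cycle for long fatty acids, was at 1473 CPM in D53, 600 in D70, 493 in D68, 427 in D72, 335 in D66 and 256 in D63. The electron transfer flavoprotein gene etfa was at 640 CPM in D53 against 147 to 267, and hadhb, of the trifunctional protein, at 850 against 263 to 416 CPM. D63 was the lowest fish for acadvl and etfa. Of the 18 genes, 4 were at least 2-fold low there with size factors, against 8.67% of all genes. With scaling by totals 9 were, against 1870 of all 8049 genes. The citric acid cycle list also holds pyruvate dehydrogenase kinases. In it 6 of 26 genes were at least 2-fold high in D53 and 0 low, against 11.2% and 8.27% of all genes. With scaling by totals 19 were high and 0 low, against 2308 and 271 of all 8049 genes. Among the 6 were dlst (488 against 158 to 207 CPM), a subunit of 2-oxoglutarate dehydrogenase, and the kinases pdk3a and pdk4. Not all genes of these lists were highest in D53. Among the enzymes, cpt2, which imports fatty acids, was highest in D70 (41.2 CPM, and 12.5 in D53), as was acads (115 CPM, and 95.4 in D53), while eci2 was highest in D68 (2.75 CPM, and 2.13 in D53).

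Glycolytic genes went the other way. Of 27 genes for glycolysis and glycogen, 14 were at least 2-fold low in D53 and 2 high, against 8.27% and 11.2% of all genes. With scaling by totals 9 were low and 3 high, against 271 and 2308 of all 8049 genes. The summed level was 40493 CPM in D53, 66156 in D68, 87053 in D70, 143080 in D72, 185094 in D66 and 186058 in D63. Glucose-6-phosphate isomerase (gpib) was at 781 CPM in D53, 1525 in D68, 2071 in D70, 2903 in D72, 4245 in D66 and 5981 in D63. Muscle enolase (eno3) stood at 5793 to 7375 CPM in D53, D68 and D70 and at 22432 to 30347 CPM in D63, D66 and D72, so its values lay in separate ranges rather than with a single fish apart. Lactate dehydrogenase (ldha), picked after its values were seen, was at 926 CPM in D53 and 5241 to 9806 in the other 5 fish.

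In D63, 7 of the 27 glycolysis and glycogen genes were at least 2-fold high and 0 low, against 6.12% and 8.67% of all genes. With scaling by totals 2 were high and 3 low, against 185 and 1870 of all 8049 genes. The median member lay 0.58 log2 units above the other fish with size factors and 0.12 above them with totals. The number of genes high in D63 thus rests on the scaling, while the side of the median does not. The genes of the list that were high in D53 were gbe1b, the glycogen branching enzyme (264 against 57.6 to 158 CPM), and pfkfb4a, an enzyme that sets the level of an activator of phosphofructokinase (22.9 against 2.09 to 5.98 CPM). Without D53, 3 of the 27 genes were variable, a share slightly below the 13% of all genes.

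**Figure D4:**
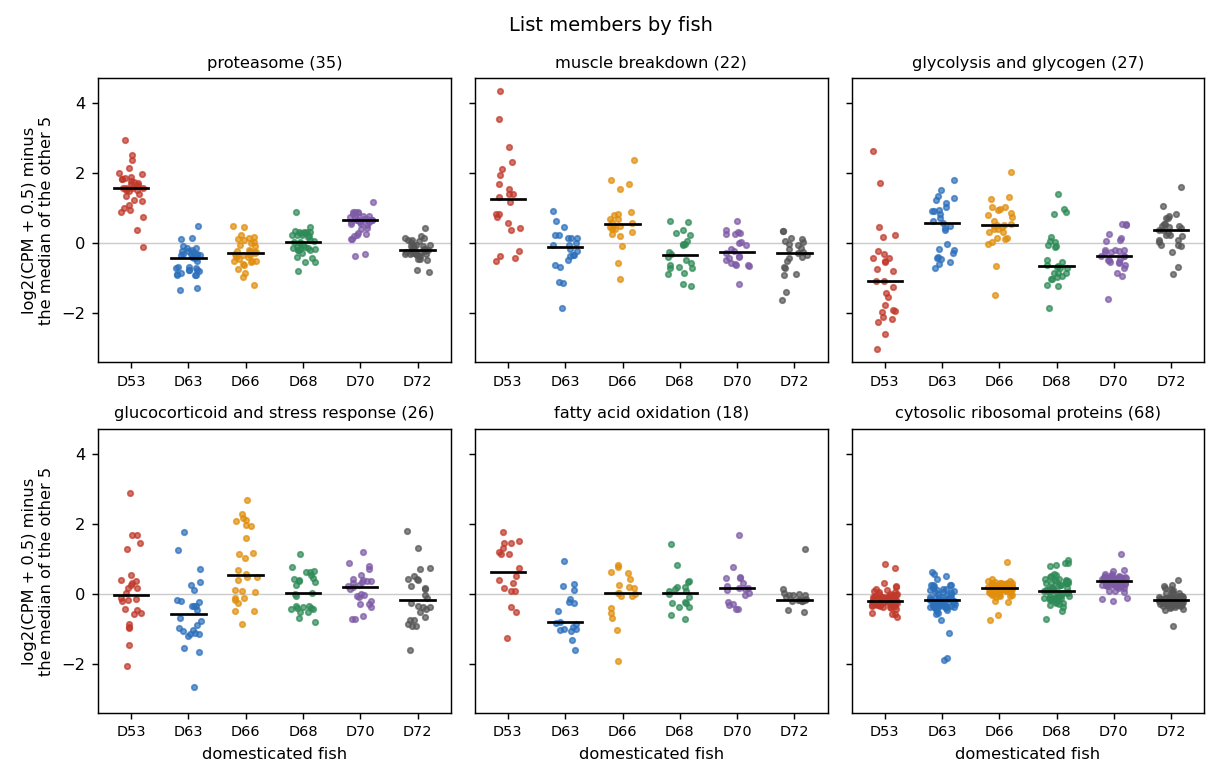
Members of 6 gene lists (number of genes in brackets) in each domesticated fish (x axis), as log2(CPM + 0.5) minus the median of the other 5 fish (y axis), 1 point per gene with a black line at the list's median. Proteasome genes lie above 0 in D53 (median 1.59, and 2.17 with scaling by totals) and glycolysis genes below it (-1.07, and -0.30 with scaling by totals), while the medians of ribosomal protein genes are nearer to 0 (-0.19 to 0.36, and -0.90 to 0.56 with scaling by totals).

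Part of the contractile genes shared the lower level in D53, and their number depended on the scaling. With size factors 5 of 11 thin filament genes and 7 of 15 thick filament genes were at least 2-fold low in D53. The share of all genes was 8.27%. With scaling by totals 2 and 0 were, against 271 of all 8049 genes. The thick filament list counts the chaperone hsp90aa1.1 among its low genes and does not hold LOC100712344. That leading myosin was lowest in D68 (64040 CPM, and 82507 in D53). Actin acta1b stood at 24748 CPM in D53, 37006 in D68, 50321 in D70, 58819 in D72, 89744 in D66 and 103490 in D63. The cardiac type actin actc1b was at 17.3 CPM in D53, 117 to 300 in D63, D68, D70 and D72, and 635 in D66, and a further skeletal actin, acta1a, was at 0.304 CPM in D53 (3 counts) against 5.81 to 20.2 in the others. D53 was the lowest fish for each of the 3 actins. Titin (ttn.1) ran from 26005 CPM in D53 to 154558 in D66, and the regulatory light chain mylpfb from 16.3 CPM in D70 to 323 in D68. The Z-disc and costamere list had 1 variable gene of 19 and excitation-contraction coupling 1 of 21, against 20.5% of all genes.

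Outside the sarcomere, gatm, the enzyme that starts creatine synthesis, was at 58.9 CPM in D53 and 338 to 1767 in the others, with D63 highest. The triglyceride synthesis gene dgat2 was at 0.708 CPM in D53 and 9.17 to 38.7 elsewhere, with D72 highest. In the lipid storage list cebpa, a regulator of fat cell genes, was at 5.02 CPM in D63 and 5.07 in D72 against 0.917 to 1.32 CPM in the rest, and apoeb was highest in D53 (44.9 CPM). The matrix list was also low in D53, with a summed level of 6765 CPM there and 12571 to 28103 in the other fish. Of 39 genes 8 were at least 2-fold low in D53, against 8.27% of all genes. With scaling by totals 3 were, against 271 of all 8049 genes. The matrix list did not follow the contractile genes in D68. That fish was the second highest for matrix (21598 CPM) and the second lowest for thin (38589 CPM) and thick filament genes (112703 CPM). Collagen col1a2 was at 3356 CPM in D53 and 18939 in D66. In bulk tissue fewer cells of a type and less RNA per cell cannot be told apart.

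D66 was marked by genes of the glucocorticoid and stress response list. Of 26 genes on the glucocorticoid and integrated stress response list, 11 were at least 2-fold high in D66 and 0 low. The shares of all genes were 5.64% and 5.65%. With scaling by totals 7 were high and 1 low, against 190 and 1389 of all 8049 genes. The receptor co-chaperone fkbp5, a known glucocorticoid target, stood at 814 CPM in D66, 185 in D70, 166 in D68, 127 in D72, 92.1 in D53 and 79.9 in D63. The cortisol-inactivating enzyme hsd11b2 was at 512 CPM in D66 and 36.4 to 140 in the others, and the kinase sgk2b at 1089 against 215 to 410 CPM. D66 lay above all other fish in these 3 genes, and D63 was lowest for fkbp5 and hsd11b2. In D63, 9 of the 26 genes were at least 2-fold low and 2 high, against 8.67% and 6.12% of all genes. With scaling by totals 15 were low and 1 high, against 1870 and 185 of all 8049 genes. The list's summed level was 5503 CPM in D66 and 2142 (D63) to 3311 (D70) in the others. D66 was also the library with the most gene counts, and the part of depth in these values was not tested.

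Some genes of insulin signalling and FoxO factors were high in the same fish. Of 19 genes on the insulin, IGF and growth hormone list, 5 were at least 2-fold high in D66 and 2 low. The shares of all genes were 5.64% and 5.65%. With scaling by totals 2 were high and 3 low, against 190 and 1389 of all 8049 genes. The median member lay 0.54 log2 units above the other fish in D66 with size factors and 0.16 above them with totals. The counts of high and low genes thus rest on the scaling, while the side of the median does not. The insulin receptor substrate irs2b was at 178 CPM in D66 and 18.3 to 25.3 in all others, an 8.09-fold difference, and the glucose transporter slc2a1b at 311 against 42.2 to 83.2 CPM. The transcription factor foxo1a stood at 405 CPM in D66 and 35.7 to 116 elsewhere, and foxo3b at 496 against 89.6 to 182 CPM. The triglyceride lipase pnpla2, known in mammals as a FoxO1 target, was at 102 CPM in D66 and 15.6 to 38.6 in the rest. D53, which had the highest fbxo32 level, was the second fish for pnpla2 and foxo1a, at 38.6 and 116 CPM, so that fbxo32 and the FoxO genes did not peak in the same fish. These values changed little without D53, with an excess CV of 1.3 for irs2b and 1.13 for foxo1a.

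The largest single departure in D66 was lipg, which encodes endothelial lipase, at 294 CPM against 2.23 to 6.64 in the other 5 fish, or 66.9-fold over their median. The actin-binding repeat gene xirp1 was at 654 CPM against 18.9 to 74.2, the transcriptional repressor gene bcl6ab at 209 against 1.92 to 19.0, the nuclear inhibitor of NF-kappaB nfkbid at 209 against 8.2 to 15.8, and midn at 266 against 12.3 to 29.6 CPM. The orphan receptor gene nr4a3, an immediate early gene, was at 99.8 CPM against 8.5 to 26.6. Most immediate early genes did not share this, since 4 of 34 were at least 2-fold high and 3 low in D66, against 5.64% and 5.65% of all genes. The circadian clock list had 3 variable genes of 18 (16.7%, against 20.5% of all genes). Among them was nfil3-6, at 161 CPM in D66 and 42.5 to 75.8 CPM in the other fish. Sampling hours are not stated in labels or methods.

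**Figure D5:**
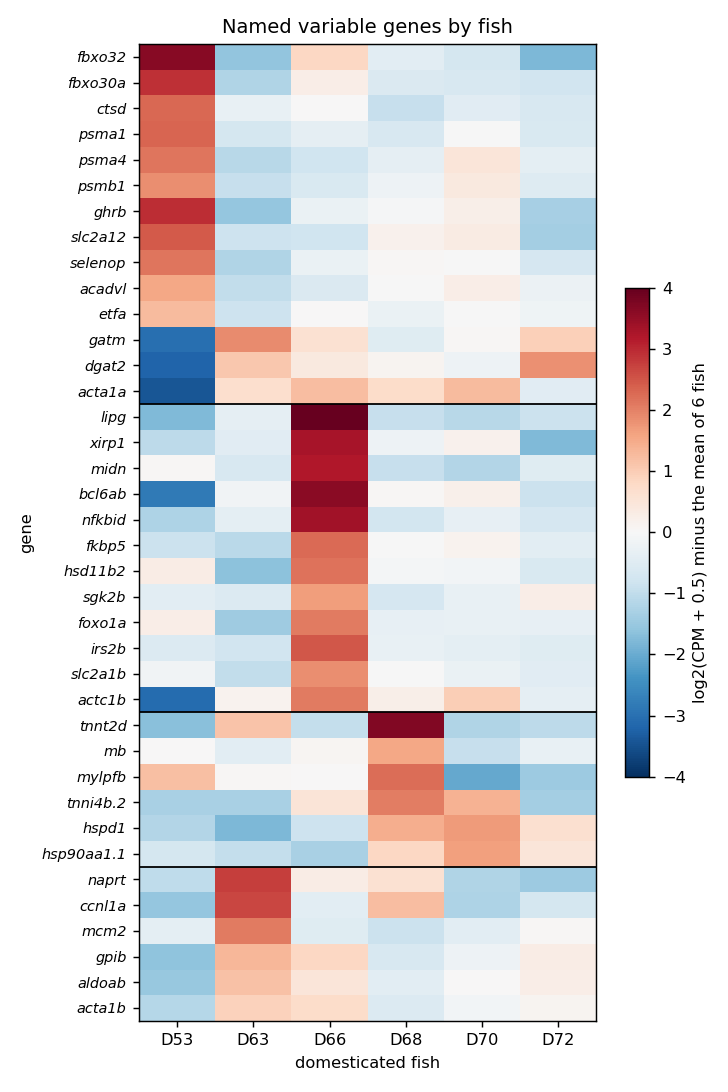
Named variable genes (y axis) in the 6 domesticated fish (x axis), coloured by log2(CPM + 0.5) minus the mean of the 6 fish, red above and blue below, with colours ending at 4 and -4. Black lines part genes at an extreme in D53, genes highest in D66, genes highest in D68 or D70, and genes highest in D63. Examples are fbxo32 (2197 CPM in D53), lipg (294 CPM in D66), tnnt2d (206 CPM in D68) and ccnl1a (117 CPM in D63).

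D68 was set apart by genes of slow and heart muscle. Of 6 measured genes on that list, 5 were at least 2-fold high in D68 under both scalings. Of all genes 5.81% were with size factors, and 1071 of 8049 with scaling by totals. The troponin T gene tnnt2d, named after the cardiac form, stood at 206 CPM in D68, 34.6 in D63 and 4.55 to 7.72 in the other 4 fish. Myoglobin (mb), which stores oxygen, was at 355 CPM in D68 and 64.2 to 127 elsewhere. Troponin I tnni4b.2 was at 182 CPM in D68, 117 in D70, 62.8 in D66 and 17 to 17.6 in D53, D63 and D72. The light chain myl2b was also high in D68 (7.15 CPM), but higher in D72 (16.1), with 0.405 to 2.51 in the others. The sixth gene, the calcium pump atp2a2b of slow and heart muscle, ran the other way and was lowest in D68, at 5.13 CPM against 6.46 to 12.4. The summed level of the list was 772 CPM in D68 and 156 to 221 CPM in the other 5 fish, and tnni1b, a defining marker of slow fibres, was seen with 3 counts in D70 and none in D68.

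The same fish had lower vessel markers. Of 16 endothelial genes, 6 were at least 2-fold low in D68 and 0 high, against 4.50% and 5.81% of all genes. With scaling by totals 2 were low and 0 high, against 120 and 1071 of all 8049 genes. The summed level of the list was 124 CPM in D68 against 222 to 326 in the others. The defining marker cdh5 was at 21.3 CPM in D68 and 33.8 to 58.4 elsewhere, and kdrl at 4.95 against 6.82 to 17. The transcription factor genes sox7 and sox18 of this list were near 1 CPM in D68 (0.917 and 0.550), while sox7 reached 7.54 CPM in D63. Excitation-contraction coupling genes were also lower in D68 with size factors, where 5 of 21 were at least 2-fold low, against 4.50% of all genes. With scaling by totals 0 were, against 120 of all 8049 genes. A gene without a product name, LOC100701798, was at 3557 CPM in D68, 351 in D63, 128 in D66 and 32.9 to 66 in the other 3 fish.

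High levels of a pair of chaperones, though not of chaperones in general, were shared by D70 and D68. The mitochondrial chaperonin hspd1 stood at 130 CPM in D70, 109 in D68, 62.4 in D72, 22.2 in D66, 17.1 in D53 and 10.9 in D63. The chaperone hsp90aa1.1, needed for myosin folding in zebrafish muscle, was at 1005 CPM in D70, 577 in D68, 457 in D72, 197 in D53, 168 in D63 and 132 in D66. In both genes D70, D68 and D72 lay above D53, D63 and D66 without overlap. The wider list had 9 variable genes of 38 (23.7%, against 20.5% of all genes). At least 2-fold high were 2 of the 38 in D70, 4 in D68 and 11 in D53. The shares of all genes were 3.50%, 5.81% and 11.2%. With scaling by totals 4, 5 and 22 were high, against 403, 1071 and 2308 of all 8049 genes. The chaperone genes high in D53 included subunits of the cytosolic chaperonin that folds actin and tubulin, picked after their values were seen. Of these, cct2 was at 339 CPM against 56.5 to 141 and cct3 at 497 against 128 to 306. Without D53, 5 of the 38 genes were variable (13.2%, against 13% of all genes).

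D63, the fish with most ribosomal RNA counts, was high for ccnl1a, a cyclin of pre-mRNA splicing, at 117 CPM against 43.4 in D68 and 5.77 to 13.4 in the other 4 fish. The NAD salvage gene naprt was at 636 CPM in D63, 144 in D68, 116 in D66 and 33.7 to 46.7 in D53, D70 and D72. Some genes of DNA replication, low in all fish, were highest in D63, with mcm2 at 8.97 CPM against 0.733 to 1.79, mcm3 at 6.10 against 0.667 to 2.02 and ccne1 at 5.92 against 0.333 to 1.83. Others were highest in D53, namely pcna (17.4 CPM, against 6.14 to 13.3 in the others) and mcm7 (9.61 CPM, and 3.23 in D63, the lowest fish). Of 11 measured cell cycle genes 5 were at least 2-fold high in D63 and 0 low, against 6.12% and 8.67% of all genes. With scaling by totals 3 were high and 0 low, against 185 and 1870 of all 8049 genes. The cell cycle values rest on few counts per library, and 3 counts correspond to 0.304 to 0.550 CPM. The filter included D63, so genes this low elsewhere can pass it through that fish. The count of high genes therefore does not show that the list as a whole was high in D63. Without D63 the variable share of the list was 14.3%, against 18.1% of all genes. Among members of at least 10 CPM it was 0%, against 19.7% of all genes. In D63, 698 genes were low, among them mrpl20 of the mitochondrial ribosome (1.79 CPM against 9.11 to 36.8).

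Growth and differentiation genes that no single fish led alike were picked after their values were seen. The second growth hormone receptor ghra was highest in D66 (82.5 CPM against 19.4 to 33.1), not in D53 like ghrb. The growth factor igf1 was low in all fish, at 11.8 CPM in D72, 11.5 in D68 and 2.0 to 6.61 in the others. The suppressor of cytokine signalling socs2, which dampens the growth hormone receptor, stood at 1.26 CPM in D66 and 12.4 to 31.9 elsewhere, so that D66 was the highest fish for ghra and the lowest for socs2. Of 20 myogenic and satellite cell genes 4 were variable, which is close to the 20.5% of all genes, among them myogenin (myog), a driver of fibre differentiation, at 104 CPM in D53 and 31.3 to 52.6 in the others, and nfatc1, which responds to calcium, at 56.9 CPM in D66 against 8.3 to 19.7. Without D53, 2 of 19 were variable, against 13% of all genes. Telethonin (tcap), which caps titin at the Z-disc, was the variable gene of the Z-disc list and followed titin, with 1043 CPM in D66 and 253 in D53.

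Translation factors had 4 variable genes of 25, each highest in D53, against 20.5% of all genes. The inhibitor of translation initiation eif4ebp3l, picked with the other 3 after its values were seen, was at 252 CPM in D53 and 44 to 91.8 in the other 5 fish, and initiation factor subunits eif3ba (383 against 107 to 180 CPM) and eif3i (249 against 75.2 to 114 CPM) had a similar order. Without D53, 1 of the 25 genes was variable, against 13% of all genes. The immediate early genes ier2a and ier2b, chosen in the same way, were at 40.0 and 78.1 CPM in D53, at 21.4 and 41.5 in D63, and at most at 13.4 and 24.4 CPM elsewhere. Of the immediate early list 6 of 34 genes were at least 2-fold high in D53 and 6 in D63, against 11.2% and 6.12% of all genes. With scaling by totals 13 and 1 were, against 2308 and 185 of all 8049 genes. The count in D63 thus rests on the scaling.

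The genes that varied least among named genes of at least 50 CPM were hsd17b10, at 60.2 to 69.4 CPM with an excess CV of 0.0298, si:ch211-71n6.4 (0.0521), taok1a (0.0564), the fibroblast receptor pdgfra (0.0595), and the complex I subunits ndufs1 (0.0611) and ndufa8 (0.0620). The evenness of pdgfra, at 72.7 to 88.1 CPM, stood beside 3356 to 18939 CPM of col1a2 in the same fish. Oxidative phosphorylation genes summed to 7048 to 10659 CPM and cytosolic ribosomal proteins to 28420 to 37022 CPM. Ribosomal protein genes nevertheless moved together, with a mean correlation of 0.48 between members over the 6 fish, against 0.01 for all tested genes. For proteasome genes this value was 0.78, and 0.57 without D53. With 6 points such correlations are imprecise and are given as descriptions.

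Among lists of other cell types, red and white blood cell genes and nerve genes varied less often than the 20.5% of all genes. Skin, smooth muscle and matrix genes varied about as often or somewhat less, and endothelial and fat cell genes more often. These shares are with size factors. With scaling by totals endothelial genes varied less often than all genes, and fat cell genes still more often. The erythrocyte list had 0 variable genes of 12 and the leukocyte list 1 of 20, with summed levels of 1454 to 3163 CPM and 1532 to 4047 CPM. The erythrocyte sum was mostly tmod4, which muscle also expresses, and the leukocyte sum mostly lcp1 (975 to 3590 CPM), whereas the defining markers alas2 and rhag were at 7.50 to 17.2 and 6.61 to 20.3 CPM and coro1a at 5.13 to 10.4 CPM. Antigen presentation genes had 2 variable members of 8, of which irf7, a regulator of interferon genes, was at 48.8 CPM in D53 and 4.09 to 8.79 elsewhere. Of the nerve markers 4 genes were measured, and sox10 and plp1b, each with 2 annotated transcripts, had 1 and 3 counts in all. Skin genes had 2 of 11 variable and smooth muscle and pericyte genes 1 of 6. Whether contents of other cells contribute to the spread of the muscle genes was not tested.

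Genes that varied together were grouped by their correlation over the 6 fish. Of the 715 variable genes of at least 10 CPM, 662 (92.6%) fell into 15 groups of at least 10 genes joined at an average r of 0.7. Genes that are farthest in the same fish correlate over 6 points by that alone, and 2.32% of all gene pairs of at least 10 CPM had an r of at least 0.9. The largest group had 305 genes, all 305 highest in D53, with a mean 1.59 log2 units above the average fish. It held 25 proteasome genes, 8 muscle breakdown genes and 5 genes each of the citric acid cycle and fatty acid oxidation lists. The citric acid cycle members were dld, dlst, sdhdb and the pyruvate dehydrogenase kinases pdk3a and pdk4. The group was led by ppt2b, eva1aa, dlst, cog4, scarb2c and comtb. Without D53, 6 of the group's 305 genes remained variable.

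The second group of 56 genes was highest in D66 in each case (mean 1.82 log2 units), and 54 of them were variable without D53. It held fkbp5, hsd11b2, sgk2b, irs2b, slc2a1b, foxo1a and xirp1, and the genes nearest to its mean were fkbp5, larp4ab, nt5c2b, il17d, irs2b and klf13. A further group of 25 genes high in D66 was led by midn, mmp15b, greb1, srrd, coq10b and kdm6ba, a histone demethylase (188 CPM in D66 against 16.1 to 44.9). It differed from the second group in D53 and D63, where its mean deviation was -0.04 and -0.10, against -0.73 and -0.78.

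The third group of 50 genes joined small RNAs and protein-coding genes. It held 20 snoRNA and 5 snRNA genes together with 25 protein-coding genes, was highest in D68 (1.33) and lowest in D63 (-1.75), and all 50 were variable without D53. Its leading named genes were uqcc4, pfdn4, tstd3, mrpl12, mrto4 and rpl37a, of which mrpl12 and rpl37a encode ribosomal proteins of mitochondria and cytosol. For instance, mrpl12 was at 42.3 CPM in D70, 33.7 in D68, 24.6 in D53, 22.6 in D72, 14.6 in D66 and 5.92 in D63. The fourth group of 36 genes, with 7 rRNA genes, was highest in D63 (1.89) and lowest in D53 (-1.04).

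The fifth group of 35 genes held abundant muscle genes, with acta1b, tpi, pgk1, gapdh and gpib nearest to its mean, and 8 glycolysis genes in all. It was high in D66 (1.09) and D63 (0.96) and low in D53 (-1.38) and D68 (-0.61). Triosephosphate isomerase (tpi) stood at 1549 CPM in D53, 3336 in D68, 4605 in D70, 8271 in D72, 12051 in D66 and 12628 in D63. Under scaling by totals the values of D63 and D66 move by -0.44 and -0.42 log2 units. The sixth group of 30 genes, led by tmem126a, cluha, mrps24, hspd1, ppp5c and coa3a, most of them of mitochondrial function, was high in D70 (1.16) and D68 (0.95) and low in D53 and D63.

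Smaller groups joined fish that were otherwise unlike. The ninth group of 21 genes was high in both D53 (1.27) and D66 (1.06) and low in D63 (-1.31), and held klf9, a glucocorticoid target (80.2 CPM in D66, 66.5 in D53 and 14 to 31.5 elsewhere), the amino acid transporter chain slc3a2a (1120 in D66, 1038 in D53 and 73.2 in D63) and zfand5b. The fourteenth group of 10 genes was high in D53 and low in D66 (-1.49), with mlycd, which controls fatty acid oxidation through malonyl-CoA, and g0s2, an inhibitor of pnpla2, at 83.4 CPM in D53, 82.0 in D72 and 19.8 in D66. The eighth group of 22 genes, all highest in D68, held tnnt2d together with edem1 and rnpepl1.

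The genes most like single variable genes, by r of log2(CPM + 0.5) over the 6 fish, gave a similar view. Nearest to fbxo32 were hsp90ab1 (r = 0.995), eif2a (0.992) and farsb (0.988). Nearest to psma1 were psmd3 (0.999), cops3 (0.998) and ppt2b (0.996), and to fkbp5 larp4ab (0.993), jam3b (0.989) and tsc22d3 (0.981), itself a glucocorticoid target. The gene acadvl was followed by fam210ab (0.997), pdk4 (0.993) and oxa1l (0.993), pdk4 being the kinase that turns muscle from glucose to fatty acids. For tnnt2d they were edem1 (0.989), rnpepl1 (0.987) and slc9a7 (0.983), and for pnpla2 vps26bl (0.980), foxo1a (0.978) and nfil3-6 (0.975).

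Variation that did not rest on a single fish was listed after the data were seen, as genes of at least 10 CPM that stayed variable with any fish left out. There were 157, of which 127 were protein-coding, 14 snoRNA, 5 rRNA, 3 snRNA and 8 long non-coding. The named gene with the largest remaining spread was tnnt2d (1.03), followed by ccnl1a (0.954), the deubiquitinase otud1 (0.917), and slc25a5 (0.907), which exchanges ADP and ATP across the mitochondrial membrane. The glycogen-targeting subunit ppp1r3c2b was at 275 CPM in D53, 146 in D72, 51.3 in D70, 47.7 in D68, 42.0 in D63 and 14.6 in D66, an 18.8-fold range spread over several fish. The muscle stretch gene ankrd1a was at 67.7 CPM in D66, 47.9 in D63, 23.5 in D70, 14.5 in D72, 12.6 in D68 and 9.41 in D53. The gene zbtb16b, whose human counterpart is induced by glucocorticoids, was at 194 CPM in D66, 93.8 in D53 and 14 to 34.7 in the rest.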

How the data were processed

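Total RNA of fast muscle kept in DNA/RNA Shield was depleted of ribosomal RNA with Ribo-Zero Gold, made into directional libraries and sequenced in 1 HiSeq4000 lane, per the labels. The submitters' processing notes name Trimmomatic 0.33, STAR, HTSeq and edgeR, and a genome build for these tables is not stated there. Each deposited table gives, for every annotated transcript, a raw integer count of reads, with no other normalisation, and 5 summary lines for reads not counted. Reads with several alignments and reads ambiguous between transcripts were left out by the authors' counting, so genes with many transcripts or close copies are under-counted.

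Here the 5 summary lines were set aside, transcripts were summed to 42609 genes, and the 6 domesticated libraries were grouped by their treatment label. The 6 wild libraries were not used. RefSeq names matched 42607 genes, and product names of some LOC numbers were read from the study's supplementary tables. Counts were scaled within the 6 fish by median-of-ratios size factors to CPM, so a fish's values need not sum to 1000000. Genes with 10 counts in 3 libraries and a mean of 1 CPM were examined for spread. The excess CV is the square root of the variance beyond Poisson over the mean, with genes at 0.5 or more called variable, and it was tested on simulated data first. Fish were set against the median of the other 5 at 2-fold on log2(CPM + 0.5). Principal components and average linkage groups (r of 0.7, at least 10 genes) used genes of at least 10 CPM. Python 3.11.15, pandas 2.3.3, NumPy 2.4.6 and SciPy 1.17.1 were used.

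No group was compared with another, so no p-value is given for genes or lists. The 4 technical relations were tested by exact permutation, which covers only the spread between these samples. Gene lists and members were chosen with earlier results of these data known. Named genes were the 10 most abundant, the 10 named and 3 unnamed most variable, the 6 steadiest, up to 4 most variable members of each list with a share of variable genes at least 1.5 times that of all genes, up to 3 most abundant members of other lists, up to 6 nearest to each group mean, 5 at each end of the first and second component, and 3 most like the leading gene of a list. Genes outside these rules, among them the lesser myosins, marker genes and pseudogene or small RNA loci, were chosen after their values were seen. Alternatives were other scalings, filters, pseudocounts and depths, and leaving out each fish in turn.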

Additional observations from a re-analysis of the deposited data

Results flagged for a closer look

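Values are listed here where the highest or lowest of the 6 fish was separated from its nearest neighbour by a large gap. As a part of the whole range, the gap had to be above Dixon's 95% critical value. For normally distributed values chance would exceed that in about 5% of groups. CPM and shares were taken without logs and need not be normal, so the counts below are not set against 5%. All listed values were on the high side. Among all tested genes 1145 of 8049 (14.2%) passed the critical value, as did 4 of 14 library or class measures, 7 of 32 list sums and 38 of the 73 named genes examined. The named genes were partly chosen for their spread, so their count was raised by that choice. Causes were not tested, and every value below is the single fish that lay apart.

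D53 lay apart on the first principal component (47.2) and in the summed level of proteasome (4479 CPM), fatty acid oxidation (5953 CPM), citric acid cycle (7963 CPM), antioxidant (6377 CPM, of which selenop holds 5059) and antigen presentation genes (81.6 CPM). The antigen presentation sum rests mostly on irf7. With size factors 1 of the 8 genes of that list was at least 2-fold high in D53, against 11.2% of all genes. Protein degradation genes apart in D53 were fbxo32 at 2197 CPM, fbxo30a at 213, rnf181 at 72.2, ctsd at 456, psma1 at 252, psma4 at 174, psmb1 at 184 and psmd10 at 18.5 CPM. Metabolic and hormone response genes apart in the same fish were acadvl at 1473 CPM, etfa at 640, hadhb at 850, pfkfb4a at 22.9, slc2a12 at 78.0 and the growth hormone receptor ghrb at 166 CPM. The genes si:zfos-911d5.4 at 276 CPM, comtb at 97.0 CPM and LOC100708241 at 2375 CPM completed this set.

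D66 lay apart in the summed glucocorticoid and stress response list (5503 CPM). Its members fkbp5 at 814 CPM, hsd11b2 at 512 and sgk2b at 1089 CPM were apart in the same fish, as were foxo1a at 405, irs2b at 178, slc2a1b at 311 and pnpla2 at 102 CPM. The remaining genes apart in D66 were lipg at 294 CPM, xirp1 at 654, midn at 266, bcl6ab at 209 and nfkbid at 209 CPM.

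D68 lay apart in its shares of snoRNA (2.82%) and snRNA (0.437%) and in the summed slow fibre and heart type list (772 CPM). The genes were tnnt2d at 206 CPM, myoglobin (mb) at 355, LOC100701798 at 3557 and LOC100703747 at 72.4 CPM. D63 lay apart in its rRNA share (7.77%), with the rRNA gene LOC112843668 at 70092 CPM, the tight junction gene cldn5b at 24.4 CPM, and the replication genes mcm2 at 8.97, mcm3 at 6.10 and ccne1 at 5.92 CPM. D70 and D72 were apart in none of the measures, lists and named genes examined.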

How the results depend on the processing

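The count of 1648 variable genes was 992 to 1735 when each fish was left out in turn (992 without D53, of which 849 were among the 1648), 2810 with scaling by total counts (1410 shared), 715 among genes of at least 10 CPM and 7132 when genes with a mean of at least 1 count were kept. The median excess CV of 0.309 became 0.252 to 0.320 with each fish left out, and 0.413 both with total scaling and with the 1 count filter. The first component held 42.0% to 51.5% of the variance with each fish left out, 59.8% with total scaling and 32.1% with the 1 count filter. The genes at least 2-fold high in D53 numbered 2309 with total scaling and 581 at 10 CPM or more, and those low numbered 271 and 290, and 1108 with the 1 count filter. Upper quartile scaling, thinning to the smallest library, genes with 1 transcript, a pseudocount of 2 and a rule on the SD of log2 CPM moved none of these beyond replicate spread or 1.5 times. Of the values of gene lists under these settings 93 moved and 155 did not. No paired analysis was possible because no groups were compared. The planned order of genes by counts per length was not run, since exon lengths were not used here.

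Limits are the 6 fish without repeat libraries, the loss of 44.7% to 60.2% of reads with several alignments, and library D53, whose separation carries the proteasome, breakdown and fatty acid oxidation results. Genes near 1 CPM rest on few counts. The number of list genes called high or low, as in D63, in D66 and among contractile genes in D53, depends on the scaling.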
